A study of Mus musculus with 72 samples.

Results

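OCT2 was immunoprecipitated from resting splenic B (rB) cells of WT mice and of DKO mice, and the peaks called in the 4 OCT2 libraries were compared between the genotypes on chromosomes 1 to 19. The WT mice carry both alleles of each gene (Hmgn1+/+n2+/+) and the DKO mice lack the nucleosome-binding proteins HMGN1 and HMGN2 (Hmgn1-/- n2-/-); both are on the C57BL/6 strain, and neither the age and sex of the mice nor the number pooled in a library is given in the sources used here. Each genotype had 2 biological replicates, so 4 of the 72 samples of the study are described. Peaks that overlapped by at least 1 bp were merged, which gave 68 OCT2 sites, of which 36 had a call in each of the WT replicates (sites of both WT libraries). Together, the 16 antibodies used in embryonic stem cells (ES cells), fibroblasts (MEFs) and rB cells gave 396427 sites by the same rule, 11139 of them for IKAROS, 5739 for ETS1, 1063 for IRF8 and 320 for PAX5, the other factors followed in rB cells.

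OCT2, encoded by Pou2f2, is a POU-domain transcription factor expressed mainly in B cells, where it is needed for the survival and the responses of mature cells. It binds the octamer, as does the related and widely expressed OCT1, and at some promoters it works with the coactivator encoded by Pou2af1. Octamers are known from the promoters of immunoglobulin variable genes and of histone H2B genes, and from the distal sequence element, the enhancer-like region that lies upstream of genes for small nuclear RNAs (snRNAs) of the spliceosome. How specific the antibody was for OCT2 over OCT1 is not given in the sources used here, and an OCT2 peak below is a peak of that antibody.

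The sequences at these sites show the octamer ATGCAAAT itself. It lay within 100 bp of the summit, exact and on either strand, at 20 of the 36 sites of both WT libraries (55.6%, exact 95% binomial interval 38.1 to 72.1%, counting error only). At positions 5000 bp to either side of the same sites it occurred in 2 of 72 windows of the same length (2.78%, 0.338 to 9.68%). The octamers of 9 sites are given here with 20 bases on each side, in mm9, read along the strand of the octamer, which stands in capitals. The first 4 belong to the sites that were called in all 4 libraries and held an octamer, the next belong to U4atac and to the histone H2B promoter, and the last 3 lay away from promoters.
U6 upstream, chr12:53705778-53705825, plus strand: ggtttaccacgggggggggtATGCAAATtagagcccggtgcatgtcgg
U6 upstream, chr12:53704531-53704578, minus strand: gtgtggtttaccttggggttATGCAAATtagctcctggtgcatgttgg
U6 upstream, chr9:62980861-62980908, minus strand: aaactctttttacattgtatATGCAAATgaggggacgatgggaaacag
U5 upstream, chr1:194571525-194571572, minus strand: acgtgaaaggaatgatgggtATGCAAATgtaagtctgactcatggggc
U4atac upstream, chr1:120356042-120356089, minus strand: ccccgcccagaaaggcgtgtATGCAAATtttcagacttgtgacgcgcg
Hist1h2bc promoter, chr13:23775931-23775978, minus strand: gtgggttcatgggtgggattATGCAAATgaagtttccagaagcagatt
Lrrk2 intron, chr15:91510689-91510736, minus strand: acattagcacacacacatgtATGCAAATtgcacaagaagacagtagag
Gimap5 intron, chr6:48697794-48697841, minus strand: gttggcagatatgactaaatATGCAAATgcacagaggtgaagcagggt
Fosb, intergenic, chr7:19886368-19886415, plus strand: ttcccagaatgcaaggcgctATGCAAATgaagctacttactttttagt

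The lists hold no read counts, but the number of reads stacked at each summit and the local background could be solved from the deposited fold enrichment and p of every OCT2 peak. The background level of the solved lists put the 4 OCT2 libraries at nearly the same depth, 10.2 and 9.84 reads per kb in WT and 9.68 and 10.1 in DKO. No interval was identical between the replicates of a genotype. Of 9 B cell marker genes, 7 carried a peak of at least 1 of the 5 rB antibodies in both WT libraries and 5 in both DKO libraries, Cd79a, Cd79b, Ms4a1, Pax5 and Fcer2a among them, whereas 0 of 5 T cell and 0 of 4 myeloid markers did in either genotype. Of 4 plasma cell markers, Prdm1 and Irf4 carried one in WT and Irf4 in DKO. No OCT2 peak lay at Hmgn1 or Hmgn2 in any library, so the OCT2 lists do not check the deletion. An IKAROS peak lay at Hmgn1 in both WT and both DKO libraries and at Hmgn2 in both WT libraries and neither DKO library; a peak call at these genes does not show whether the deleted part is present.

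OCT2 peaks were fewer in DKO than in WT rB cells. The WT libraries held 54 and 50 peaks and the DKO libraries 5 and 10, so the genotypes did not overlap. The arithmetic mean fell from 52.0 to 7.50 peaks. Between the means of the log2 numbers the change was -2.88 ± 0.41 (SE, n = 2 per genotype, 95% interval -4.20 to -1.55, adjusted p = 0.0111, limma moderated test over the 16 antibodies with Benjamini-Hochberg adjustment), or 7.35-fold between geometric means. Lower numbers in DKO were called for 9 of the 16 antibodies (56.2%), and both WT libraries exceeded both DKO libraries for 10 of them (62.5%). In the other rB lists the log2 changes were -1.02 for IKAROS, -1.46 for IRF8, -1.98 for ETS1 and -3.41 for PAX5, all called; whether the OCT2 change differed from them was not tested. The labels list 1 rB input per genotype for all these lists, so variation between inputs is not part of the spread. With 2 libraries a side, 0.33 is the smallest p open to an exact permutation test (two-sided). Without WT replicate 1 or without WT replicate 2 the adjusted p rose to 0.0606 and 0.0566 in the same limma test, with log2 changes of -2.82 and -2.93.

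**Figure D1:**
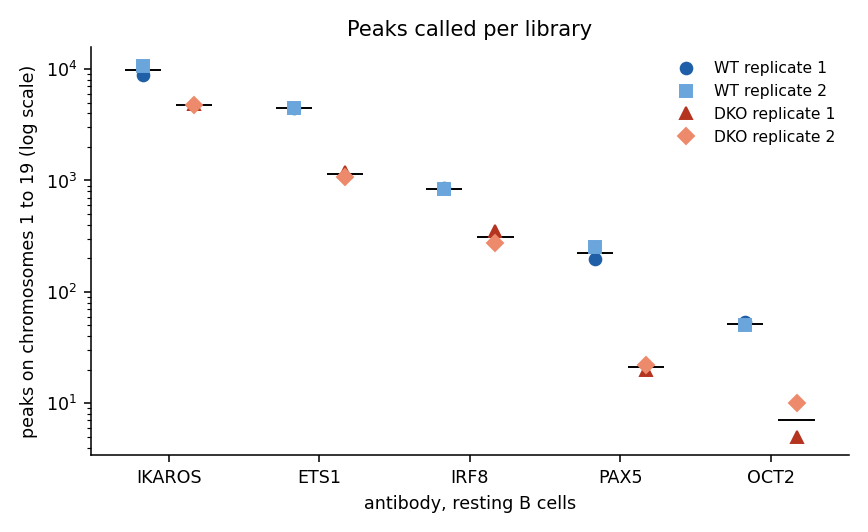
Number of peaks per library on chromosomes 1 to 19 (log scale) for the 5 antibodies used in rB cells, with 1 point per library and a line at the geometric mean of each genotype. OCT2 has the shortest lists, 54 and 50 peaks in WT and 5 and 10 in DKO.

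Peaks called in DKO cells fell on sites already called in WT. Of the 68 sites, 27 had a call in each WT replicate and none in DKO, 4 in each WT replicate and DKO replicate 2, and 5 in all 4 libraries. A further 18 were called in WT replicate 1 alone, 13 in WT replicate 2 alone and 1 in WT replicate 2 and DKO replicate 2. No site was called in DKO cells only. Between the WT replicates, 36 sites were shared, 66.7% of the list of replicate 1 and 72.0% of that of replicate 2. All 5 peaks of DKO replicate 1 were among the 10 of DKO replicate 2. Thus 27 of the 36 sites of both WT libraries (75.0%) had no DKO call, against 47.8% of the 11572 such sites of the other 4 factors pooled. Judged without WT replicate 2, when a call in WT replicate 1 alone suffices, the sites lost in DKO numbered 45, and 58 when either WT library sufficed. With each list limited to its top 5 peaks, as many as the shortest holds, 0 sites of both WT libraries lacked a DKO call. At most 5 such sites are then left to compare. By factor the numbers were 103 of 129 for PAX5 (79.8%), 1949 of 3247 for ETS1 (60.0%), 321 of 653 for IRF8 (49.2%) and 3161 of 7543 for IKAROS (41.9%).

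The 5 sites called in all 4 libraries were led by a convergent pair of U6 genes, which encode the catalytic snRNA of the spliceosome. At chr12:53705585-53705912 the fold enrichment at the summit was 21.9 and 23.8 in WT and 14.2 and 15.3 in DKO, the highest of each list, with −log10 q of 78.6, 83.4, 55.4 and 53.1. Its neighbor at chr12:53704474-53704752 had 12.1 and 13.1 in WT and 7.33 and 4.57 in DKO. Both lie in an intergenic stretch whose nearest protein-coding start, that of Arhgap5, is 61147 bp from the nearer of them. The third U6 site, at chr9:62980787-62981058, had 14.6 and 13.8 in WT and 6.97 and 6.80 in DKO. An intronic site of Hhat, which encodes a hedgehog acyltransferase, lay just upstream of a U5 gene (chr1:194571463-194571736) and had 9.23, 11.9, 7.52 and 5.60. The 5th, at chr1:46910245-46910727, is in an exon of Slc39a10, a zinc transporter gene, 435 bp from its start; it had 11, 12.7, 7.42 and 8.41 and was the one of the 5 without an octamer. At each of these 5 sites both DKO values lay below both WT values.

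The lower fold enrichment in DKO went with a higher local background more than with fewer reads. The local background comes from the input, and the labels list 1 rB input per genotype, so the values of a genotype rest on 1 input library. The genotype difference in background thus has no replicate check and cannot be told apart from a difference between those input libraries. At the strongest U6 site 81 and 82 reads were stacked in WT and 77 and 73 in DKO, on a background of 2.74 and 2.49 reads in WT and of 4.49 and 3.62 in DKO. At Slc39a10 the reads were 53 and 42 in WT and 51 and 43 in DKO, and the background 3.91 and 2.38 against 6 and 4. Over the 5 sites the reads, not scaled for depth, summed to 288 and 280 in WT and to 284 and 226 in DKO. DKO replicate 1 thus matched WT and DKO replicate 2 was lower. The number stacked at a summit also depends on the fragment length. The shortest peak of each list was 165 and 155 bp in WT and 163 and 125 bp in DKO, and the part of this in the lower sum was not tested. The ratio of DKO to WT means ran from 0.810 to 1.01 for reads (median 0.920) and from 1.55 to 1.87 for background (median 1.80). These sites were called in DKO, so their reads say nothing of the sites that were not, where neither reads nor background of DKO cells could be had from the lists. The lists of the other rB factors share these inputs, so the higher background at their DKO peaks is no independent repeat: at the 3459 sites of all 4 IKAROS lists its median was 2.31 times the lowest of the list in each WT library and 4.14 and 3.52 times in DKO.

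**Figure D2:**
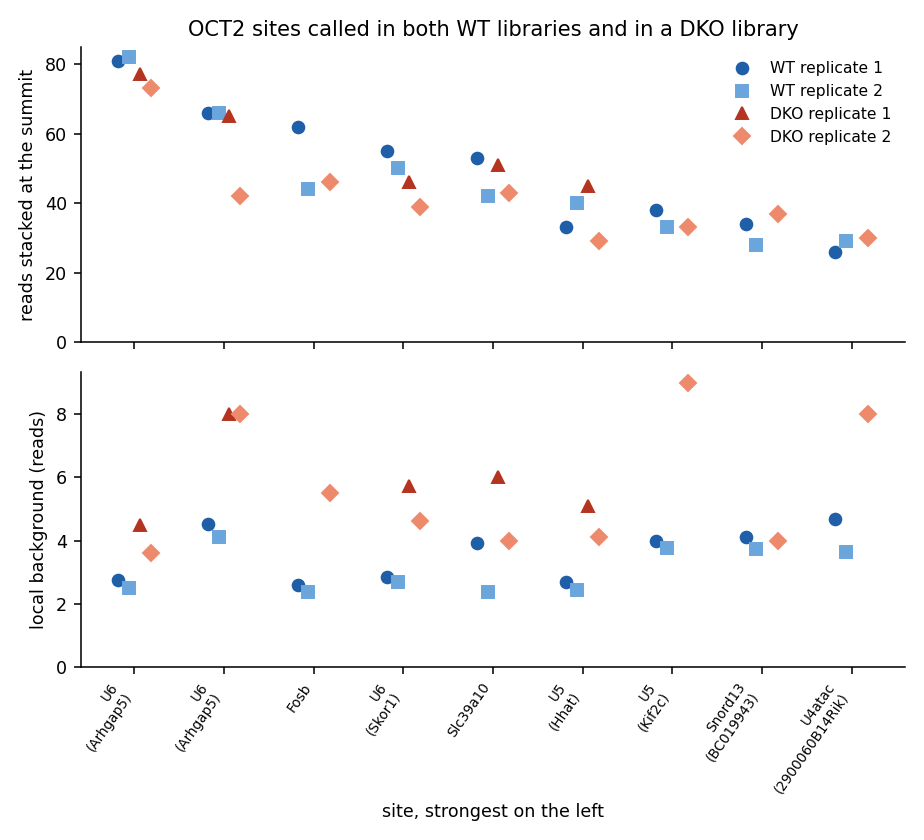
Reads stacked at the summit (top) and local background in reads (bottom), in each library that called the site, for the 9 OCT2 sites shared by the WT replicates and kept in DKO. The ratio of DKO to WT mean reads runs from 0.810 at the U6 gene near Skor1 to 1.19, and most DKO backgrounds stand above the WT ones.

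The other 4 sites shared with DKO replicate 2 were led by an intergenic one, chr7:19886251-19886586, 8935 bp from the start of Fosb, an AP-1 subunit gene. Its fold enrichment was 17.5 and 13.4 in WT and 6.91 in DKO replicate 2, with 62, 44 and 46 reads. A U5 gene near Kif2c (chr4:116862239-116862515) had 7.80 and 7.11 in WT and 3.25 in DKO replicate 2. Snord13, a small nucleolar RNA gene beside BC019943 (chr8:32260448-32260710), had 6.82 and 6.10 in WT and 7.27 in DKO replicate 2, the one site of the 9 with a higher value in DKO. The gene of U4atac, a snRNA of the minor spliceosome within Clasp1 (chr1:120355963-120356181), had 4.74 and 6.47 in WT and 3.29 in DKO replicate 2. Of the 9 sites kept in a DKO library, 7 were upstream of small RNA genes.

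**Figure D3:**
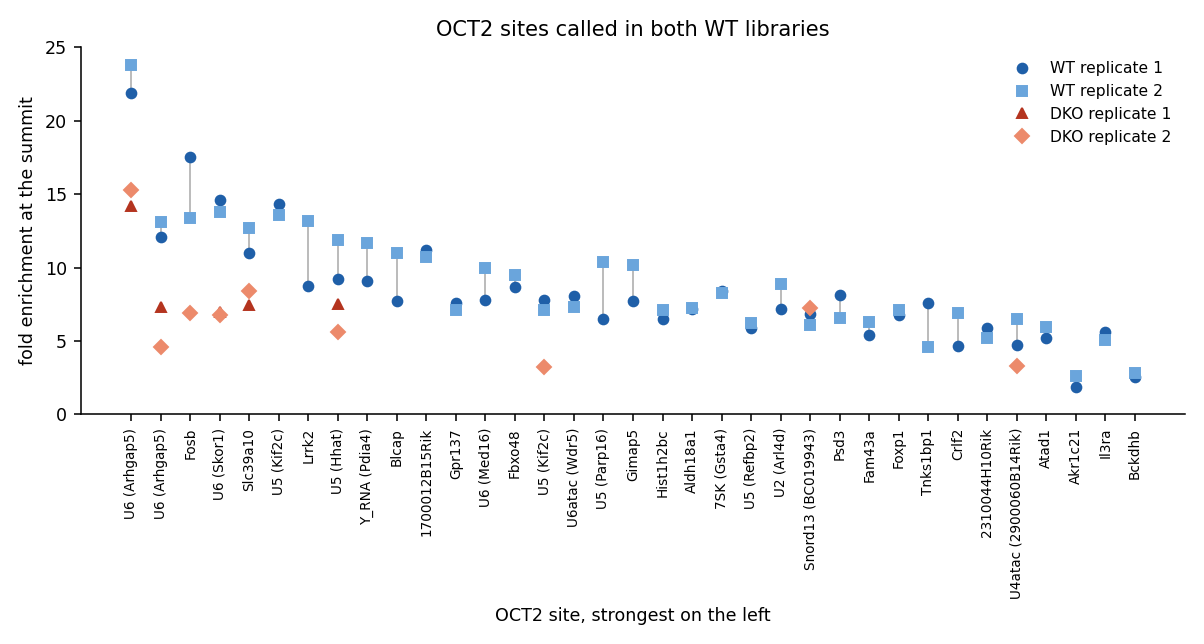
Fold enrichment at the summit of 35 of the 36 OCT2 sites called in both WT libraries, ordered by mean WT −log10 q, with 1 point per library that called the site. A small RNA gene within 500 bp of the summit is named before the nearest protein-coding gene in parentheses; DKO points appear at 9 sites and at 5 of the first 8 in both DKO libraries.

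The lost sites were weaker in WT than the kept ones, with a median −log10 q of 14.1 against 32.8, but included strong ones. The first site in order of strength with no DKO call was another U5 gene near Kif2c, chr4:116883132-116883459, with 14.3 and 13.6 in WT and a background of 1.81 and 1.64 reads, among the lowest. The next, at chr15:91510611-91510830 in an intron of Lrrk2, a kinase gene, had 8.72 and 13.2. Over the 27 lost sites the WT reads at the summit ran from 19 to 101 in replicate 1 (median 30) and from 16 to 106 in replicate 2 (median 33.0). At the 9 kept sites the medians were 53.0 and 42.0. The highest reads among the lost sites stood at chr13:4559057-4559358, on a background of 54.0 and 40.1 reads and with a fold enrichment of 1.86 and 2.60. Leaving out this site and the other one with a background over 10 reads, chr9:83988673-83988970 in an intron of Bckdhb, left 25 lost sites of 34.

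Small RNA genes were the largest class among the 36 sites of both WT libraries. Within 500 bp of the start of a snRNA, miscellaneous RNA or small nucleolar RNA gene lay 24 of the 68 sites (35.3%) and 16 of the 36 of both WT libraries (44.4%). By the same rule the sites of both WT libraries numbered 48 of 7543 for IKAROS (0.636%), 8 of 3247 for ETS1 (0.246%), 1 of 653 for IRF8 (0.153%) and 0 of 129 for PAX5. This class was drawn up after the sites had been seen, so the shares are a description without a test. All 24 summits lay upstream of the start, at 80 to 267 bp (median 159). Of the annotated U5 genes, whose snRNA aligns the exons during splicing, 7 of 10 had an OCT2 peak, 6 in each WT library, 1 in DKO replicate 1 and 2 in DKO replicate 2. The far larger families had fewer, 5 of 871 annotated U6 genes, 3 of 46 U2 genes and 1 of 194 U1 genes, and 0 of 42 U4 and 0 of 111 U7 genes. These families hold many annotated copies, and the counts do not set active genes apart from other copies. How reads that match several copies were placed is not given in the sources used here.

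Among the other small RNA sites of both WT libraries were further U5 and U6 genes and single genes of other families. Upstream of a Y_RNA gene near Pdia4 (chr6:47738185-47738453) the fold enrichment was 9.08 and 11.7 in WT. The U6 gene near Med16 (chr10:79371574-79371879) had 30 and 36 reads, with a fold enrichment of 7.81 in replicate 1, and the U6atac gene near Wdr5 (chr2:27395428-27395662) 8.04 and 7.32. A U5 gene near Parp16 (chr9:65049687-65050000) had 6.52 and 10.4. None of these was called in DKO. The gene of 7SK, the RNA that holds the elongation factor P-TEFb inactive, had 8.37 and 8.26 (chr9:78023511-78023738), and the gene of RNase MRP, which processes ribosomal RNA, had 9.52 in WT replicate 1 alone.

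The octamer held a fixed place at these genes. It was exact at 17 of the 24 sites, and at 14 of these its center lay 200 to 230 bp before the annotated start, a window chosen after the distances were seen (range 97 to 246 bp, median 220). Among all 3247 small RNA genes, 71 had an exact octamer 150 to 300 bp before the start. Of those 71, 16 had an OCT2 peak (22.5%), against 8 of the other 3176 (0.252%). This range surrounds the octamer positions at these same OCT2 peaks, so the shares are a description without a test. The difference was not particular to OCT2: WT IKAROS peaks were at 22 of the 71 (31.0%) and at 47 of the other 3176 (1.48%). For annotated U6 genes the OCT2 peaks were at 5 of 16 with such an octamer and at 0 of 855 without, and for U5 genes at 4 of 4 and 3 of 6. The summit and the octamer were not at the same place: the median distance between them was 56.0 bp at small RNA genes and 24.0 bp at the 17 distal sites with an octamer.

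**Figure D4:**
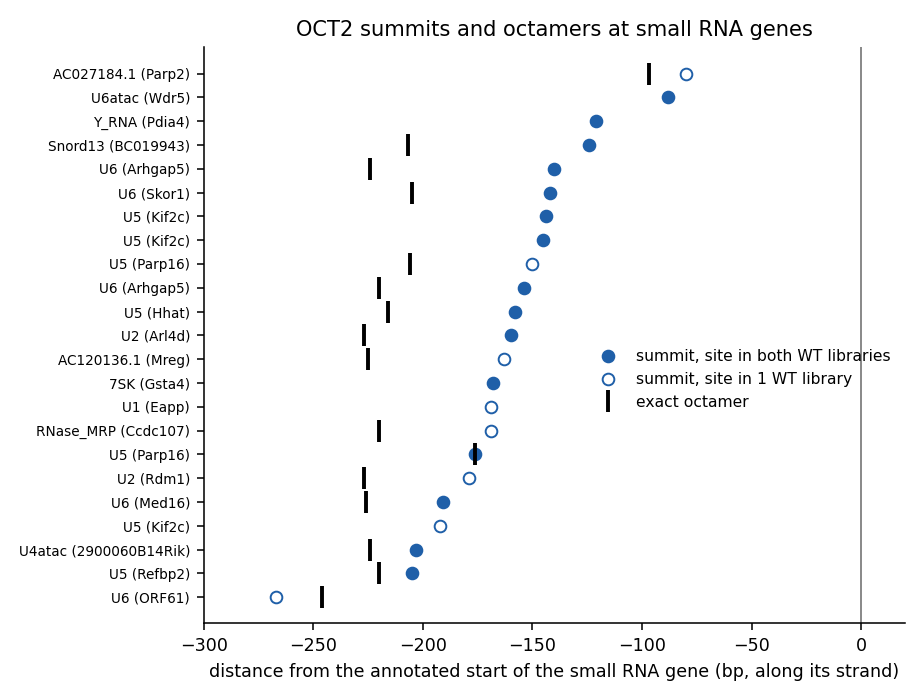
Position of the OCT2 summit (circles, filled where both WT libraries called the site) and of the nearest exact octamer within 100 bp (bars) relative to the annotated start of the small RNA gene, in bp along its strand, for 23 of the 24 sites. All summits lie before the start, and 13 of the 16 octamers drawn lie 200 to 230 bp before it.

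At protein-coding genes, 14 of the 36 sites of both WT libraries lay within 1000 bp of a transcription start (38.9%, 23.1 to 56.5%), 4 of them also next to a small RNA gene. The strongest of the other 10 after Slc39a10 were in an intron of Blcap (chr2:157392165-157392432, 7.75 and 11), beside 1700012B15Rik (chr12:3236141-3236444, 11.2 and 10.7), in an intron of Gpr137 (chr19:7015978-7016207, 7.57 and 7.11) and beside Fbxo48 (chr11:16851186-16851354, 8.67 and 9.48). None of these 4 was called in DKO. The histone gene Hist1h2bc, with its summit 96 bp from the start (chr13:23775840-23776056), had 6.50 and 7.11 in WT, 36 and 33 reads, and no DKO call; it also lies at the start of Hist1h2ac. Further sites lay at Aldh18a1, Crlf2, 2310044H10Rik and Atad1. An exact octamer was found at 3 of the 10.

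The site beside 1700012B15Rik held 5 exact octamers in 201 bp, the most of any. It is shown on the plus strand, chr12:3236200-3236400, because 4 of its octamers stand in pairs, 2 bases apart:
1700012B15Rik: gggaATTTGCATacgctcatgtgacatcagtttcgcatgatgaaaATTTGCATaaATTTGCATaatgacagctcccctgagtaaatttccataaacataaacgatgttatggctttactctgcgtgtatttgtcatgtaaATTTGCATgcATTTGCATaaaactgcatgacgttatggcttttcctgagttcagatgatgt
The capitals mark the octamer in its reverse complement. A nearby site called in WT replicate 1 alone held 3 more, and neither site had an IKAROS, ETS1, IRF8 or PAX5 peak in any library.

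Few genes of any kind had an OCT2 peak. Over all 21418 protein-coding genes the numbers with a peak at the start were 26 and 21 in WT and 1 and 3 in DKO, and within 10000 bp of the gene 64 and 59 in WT and 3 and 11 in DKO. Against these numbers, absence from a short list of genes is not a result about that list. None of 355 immunoglobulin variable genes had a peak within 1000 bp of its start or within 10000 bp of the gene in any of the 4 libraries. Of 18 histone H2B genes, 1 had a peak at its start in WT, in each replicate, and 0 in DKO. Hist3h2ba, another, had one within 10000 bp in WT replicate 2. Of 29 genes of OCT2, its coactivator and B cell function on these chromosomes, Pou2f2, Pou2af1, Cr2, Cxcr5 and Bcl6 among them, 0 had a peak at the start or within 10000 bp in any library. With lists this short, a gene without a peak may be bound below the threshold.

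Distal sites, farther than 1000 bp from a coding start and 500 bp from a small RNA gene, numbered 28 of 68, and 10 of the 36 of both WT libraries. Besides Fosb, 9 of these 10 were called in no DKO library. The Lrrk2 site was the strongest, with 31 and 44 reads. Next came a site in introns of Gimap1 and Gimap5, genes of GTPases needed for lymphocyte survival (chr6:48697695-48697956), with 7.70 and 10.2 in WT. Foxp1, which encodes a factor required in early B cell development, had an intronic site with 6.78 and 7.12 (chr6:99000561-99000924). Others lay in introns of Psd3 and Il3ra, the interleukin-3 receptor gene, and near Fam43a. Of the other 18 distal sites, 17 came from a single WT library, and these included introns of Tlr4, the lipopolysaccharide receptor gene, with 8.01 in WT replicate 1, of Prex1 with 4.79 in WT replicate 1 and of Ptprj with 6.06 in WT replicate 2.

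Overlap with peaks in other cells is given by class, without a test of the difference between classes. Of the 44 peak lists from MEFs and ES cells, the median number overlapping a site was 7.50 at small RNA genes, 7.50 at promoters and 2 at distal sites. No list overlapped 10 of the 28 distal sites, 3 of the 16 promoters and 0 of the 24 small RNA sites. Kept in a DKO library were 7 of 16 small RNA sites, 1 of 10 promoters and 1 of 10 distal sites of both WT libraries, whose median WT −log10 q was 17.4, 15.5 and 11.2.

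IKAROS, a zinc finger factor of lymphoid development, was the factor most often found with OCT2. A peak of either WT IKAROS library overlapped 24 of the 36 sites (66.7%, 49.0 to 81.4%), and the summits of the 2 factors lay a median of 59.5 bp apart. The overlapped IKAROS peaks had a median rank at percentile 87.9 of their lists, where 100 is the strongest. ETS1, which binds GGAA cores, overlapped 12 sites (33.3%, 18.6 to 51.0%) with peaks at a median percentile of 46.3, and 13.9% of sites when a peak in both WT libraries was required. IRF8, a regulator of B cell and myeloid genes, and PAX5, the factor that commits cells to the B lineage, overlapped 3 sites each (8.33%, 1.75 to 22.5%). The 3 were the same for both factors, Lrrk2 and the 2 sites with a background over 10 reads, on chromosomes 9 and 13. Those 2 also count among the IKAROS and ETS1 overlaps. No peak of the 4 factors was found in WT at 9 sites, among them Fosb, the U6 gene near Skor1, the U5 gene in Hhat and Hist1h2bc. Among the sites of both WT libraries of other factors, IKAROS peaks overlapped 62.6% for ETS1, 48.1% for IRF8 and 57.4% for PAX5. ETS1 peaks overlapped 35.4% of the IKAROS, 61.9% of the IRF8 and 84.5% of the PAX5 sites, and IRF8 peaks 5.22% of the IKAROS and 14.3% of the ETS1 sites. PAX5 peaks overlapped 1.98% of the IKAROS and 6.59% of the ETS1 sites. In turn, OCT2 peaks overlapped 0.517% of the 7543 IKAROS sites.

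The counts of partner peaks are given by class as a description; no difference between classes was tested. At the 24 small RNA sites IKAROS peaks were found in WT at 20, ETS1 peaks at 3 and IRF8 and PAX5 peaks at 0. At the 28 distal sites the WT numbers were 15 for IKAROS, 20 for ETS1, 10 for IRF8 and 6 for PAX5. The 16 promoters had 9, 4, 1 and 0. The distal numbers include the 2 sites with a background over 10 reads, each with a WT peak of every one of these factors. The Lrrk2 site carried ETS1, IRF8 and PAX5 peaks in both WT libraries and no IKAROS peak. At Gimap5 and at Fam43a, both WT libraries of IKAROS and of ETS1 had a peak.

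These partner peaks were fewer in the DKO lists. At small RNA sites a DKO list had an IKAROS peak at 11 sites, against 20 in WT, and an ETS1 peak at 0. Of all 7543 IKAROS sites of both WT libraries, 58.1% were also called in DKO, and of the 3247 ETS1 sites 1298. At distal sites the DKO numbers were 4 for IKAROS, 5 for ETS1, 4 for IRF8 and 1 for PAX5. At Lrrk2 no DKO list of any of the 5 factors had a peak. At Gimap5 both DKO IKAROS lists still had one and the ETS1 lists did not. Of the 9 OCT2 sites kept in DKO, 6 had an IKAROS peak in either WT library and 5 in either DKO library, and of the 27 lost ones, 18 and 9. The DKO lists of these factors are shorter throughout the genome, and the input background at shared IKAROS sites was higher in DKO; the part of either in these counts was not tested.

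**Figure D5:**
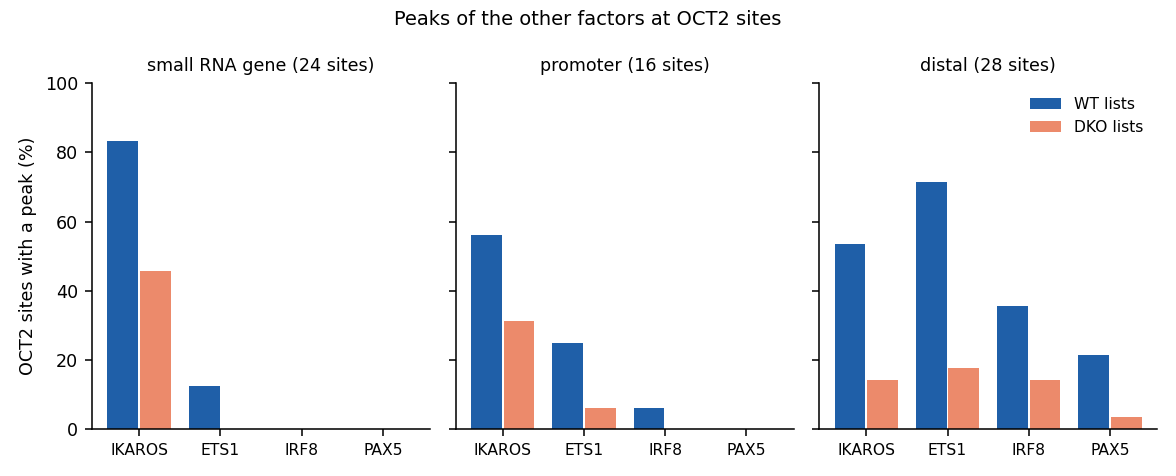
Percent of the 68 OCT2 sites, by class, that overlapped a peak of IKAROS, ETS1, IRF8 or PAX5 in either WT library (blue) or either DKO library (orange). IKAROS leads at small RNA genes (20 of 24 in WT, 11 of 24 in DKO) and ETS1 at distal sites (20 of 28 in WT, 5 of 28 in DKO).

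The octamer was rarer at the sites of the other factors. Among their sites of both WT libraries, an exact copy with the same distance limit stood at 0.597% of the IKAROS, 3.17% of the ETS1, 3.37% of the IRF8 and 5.43% of the PAX5 sites, a description without a test. With 1 mismatch allowed it was at 28 of the 36 OCT2 sites (77.8%) and at 14 of the 72 windows 5000 bp away (19.4%). Of the 27 sites lost in DKO 13 held an exact octamer, and of the 9 kept sites 7. Of the motifs of the partners, CCGGAAGT, a strong ETS motif, stood at 1 of the 36 OCT2 sites and at 0 of the windows 5000 bp away. GGAAGTGA, an ETS and IRF composite, was at 0 of the 36 sites, at 5 of all 68 sites (7.35%) and at 2 of the 72 windows. TGGGAA, the IKAROS core, was at 8 of the 36 sites, which is 22.2%, the share of the windows. At their own sites of both WT libraries, CCGGAAGT was at 6.81% for ETS1, GGAAGTGA at 31.9% for IRF8 and TGGGAA at 18.1% for IKAROS. All motifs were searched on both strands; CCGGAAGT and GGAAGTGA share the letters GGAAGT.

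Sites of 1 WT library were as varied but weaker, with a median −log10 q of 8.78 in WT replicate 1 alone and 10.6 in WT replicate 2 alone. At the sites of both WT libraries the median was 15.9. WT replicate 1 alone had Epc2 with a fold enrichment of 9.92, a U5 gene near Parp16 with 8.72, Zmiz2 with 7.09 and an intergenic site near Etv3, an ETS repressor gene, with 6.67. WT replicate 2 alone had a U2 gene near Rdm1 with 9.72, and intergenic sites near Slc4a3 with 9.22 and Hmcn1 with 9.02. These values lay within the range of the sites that both replicates called. At Tlr4, IRF8 peaks were called in both WT and both DKO libraries, without a DKO OCT2 peak. At Etv3 the IRF8 peaks were likewise in all 4 libraries, and IKAROS and ETS1 peaks were called in both WT libraries but not in DKO.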

How the data were processed

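ChIP-seq peak lists of 4 OCT2 libraries of rB cells were analysed beside 60 lists of 15 other antibodies; the 8 input samples were not analysed here. The authors trimmed reads with cutadapt 1.16, mapped them to mm9 with BWA, marked duplicates with Picard, removed blacklisted regions and called peaks with MACS2 2.1.1.20160309 in each library against input, of which the labels list 1 rB library per genotype. In the deposited lists the fold enrichment, a ratio, is that of the summit pileup to the local background. A Poisson test by the authors gave the deposited −log10 p, its adjusted form the −log10 q, and the deposited score is 10 times the latter. The submitters' notes also name bcl2fastq 1.8.4.

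Lists were read with Python 3.11.15, pandas 2.3.3 and pysam 0.24.0. Pileup and background were solved from fold and −log10 p (scipy 1.17.1); DKO depths rest on the input background of 4 other DKO lists, with the shortest peak width as fragment length, and cover counting only. Log2 peak numbers were fitted with limma 3.58.1 (R 4.3.3) over 16 antibodies, with Benjamini-Hochberg adjustment and a threshold of 0.05. Genes are from GENCODE vM1, which uses the same genome as mm9. The steps were tested on simulated data. The members, gene lists and tests were chosen with earlier results of these data known. Named sites are those of both WT libraries ordered by mean WT −log10 q, the first 20 with values, all sites of a DKO library, and the fixed gene lists; other sites were named after their values were seen. Alternatives are described in the closing section. The peak lists give no reads at sites without a peak. 1 site and 1 gene are not reported by name here, and the site is left out of the plots of single sites.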

Additional observations from a re-analysis of the deposited data

How the results depend on the processing

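The OCT2 peak number stayed lower in DKO in all 15 alternatives, with log2 changes from -3.38 to -2.35 and adjusted p from 2.9e-06 to 0.0606 (limma). Leaving out each OCT2 library in turn gave -3.38 to -2.38; the threshold was missed without either WT replicate, where the lone WT library is assumed to vary like the others. With the replicate number as a block the change was -2.88 with adjusted p = 0.0251; same-numbered libraries correlated weakly over antibodies (r = 0.199) and the labels tie them to no shared batch.

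Sites of both WT libraries without a DKO call numbered 27. The number was 0 when each list was limited to its top 5 peaks, as many as the shortest holds, with at most 5 sites left to compare. It was 58 when either WT library sufficed, and 27 to 45 with a library left out, the highest without WT replicate 2. IKAROS peaks were at 38.9% of sites in the DKO lists. ETS1 peaks were at 13.9% when both WT libraries were required and at 5.56% in the DKO lists. The octamer was at 33.3% within 50 bp and at 77.8% with 1 mismatch. Starts of transcripts of every type lay near 80.6% of sites. The other alternatives moved each result within its interval or within 1.5 times. Multiplying the WT backgrounds by 1.80, a ratio assumed from the 5 sites of all 4 libraries, gave a log2 change of -2.59 and 20 sites without a DKO call; the DKO background at those sites is unknown. This alternative and the one without the sites of high background were chosen after the values were seen. With 2 libraries per genotype and lists of 5 to 54 peaks, sites under the calling threshold are not resolved.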

Other observations

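Outside chromosomes 1 to 19 the OCT2 lists held 18 further peaks in WT replicate 1, 15 in WT replicate 2, 5 in DKO replicate 1 and 8 in DKO replicate 2. On chromosome Y, 14 and 12 peaks were called in WT and 5 and 8 in DKO, with fold enrichment from 1.38 to 4.38. They stood on a local background of 24.2 to 232 reads. At the sites of both WT libraries on chromosomes 1 to 19 its median was 3.29 and 2.70 reads in WT. Of the Y sites, 5 were called in all 4 libraries, as many as on chromosomes 1 to 19 together, and 4 in both WT libraries only. On chromosome X, 4 and 3 peaks were called in WT and 0 in DKO.

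One site was called in WT replicate 2 and DKO replicate 2 alone, 77448 bp from the start of Nr3c1, the glucocorticoid receptor gene, with a fold enrichment of 7.45 and 6.50 and 29 and 33 reads. It held an exact octamer, overlapped no MEF or ES cell list, and had ETS1 peaks in both WT libraries.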
